A study of Rattus norvegicus with 18 samples.

Results

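The genes described here encode molecular chaperones of the cytosol and the endoplasmic reticulum (ER), and were measured in 2 populations of glial cells sorted from the brain of young rats. They were chosen by gene symbol alone. Taken were the Hsp90 and Hsp110 genes, the Hspa (Hsp70) and Hspb (small heat shock protein) genes with Cryab, the mitochondrial Hspd1 and Hspe1, the Dnaja, Dnajb and Dnajc genes of the J-domain proteins, Tcp1 and the other Cct subunits of the cytosolic chaperonin, P4hb, Pdia genes, Calr and Canx of the ER, and the stress transcription factors Xbp1, Atf4, Atf6 and Ddit3. The arrays carried 84 such genes on 129 probe sets that name a single gene, and 82 genes could be tested, among 11982 genes tested in all. The names also brought in a few genes that act in mitochondria (Hspd1, Hspe1, Hspa9, Dnaja3, Dnajc19), and Dnajb6-ps10, whose symbol is that of a pseudogene. Hspa1l and Hspb3 stayed below the minimum for a test. Hsp90aa1, Hspa8 and Hspa1b, the main cytosolic Hsp90 and Hsp70 genes among them, were represented by probe sets that name several genes and are not described.

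Cells were sorted by flow cytometry from dissociated whole brains of male rat pups aged 7 days (postnatal day 7), with no treatment or genetic change named in the labels. A2B5+ cells (5 replicates) carry the ganglioside antigens of early glial progenitors, which some neurons also carry, and O4+ cells (4 replicates) carry the sulfatide antigen of late progenitors and young oligodendrocytes. Each replicate came from a litter of 10 pups, so it is a pool of animals, and whether both populations were taken from the same litters was not settled. RNA of every replicate was read on 2 array types, array A and array B. The comparison asks which chaperone transcripts differ between the sorted populations.

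Chaperones bind proteins that are not yet folded or have lost their fold. Hsp70 proteins do so in cycles of ATP hydrolysis that J-domain proteins start and that nucleotide exchange factors, the Hsp110 proteins among them, reset. Hsp90 finishes the folding of kinases and receptors, small heat shock proteins hold unfolded chains without ATP, and the ring of the CCT chaperonin folds actin and tubulin. In the ER, the Hsp70 protein BiP, the lectins calnexin and calreticulin and the protein disulfide isomerases fold proteins on their way to the membrane. Oligodendrocytes that start to myelinate make large amounts of membrane proteins and lipids, and ER stress in these cells is known to impair myelin.

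The values are ratios as deposited, in which 1 is close to the middle array for most probe sets. They can be compared between arrays for a gene and not between genes. Differences are given as log2 of O4+ over A2B5+, each with its standard error from limma over 5 and 4 replicates, and a gene is called at an adjusted p under 0.05. The O4+ label was checked against the myelin markers, of which all that were tested, 5 on array A and 2 on array B, were higher in O4+ cells. Of the markers tested on array A for other cells, all 3 of oligodendrocyte progenitors, 5 of 6 of astrocytes, 7 of 7 of microglia, 5 of 5 of endothelial cells, 4 of 4 of mast cells and 5 of 5 of dividing cells were lower, and of 7 neuronal markers 4 were lower and 2 higher (1 higher after centring). Ratios give no absolute level, so it could not be read whether a marker was absent. O4+ arrays had higher medians than A2B5+ arrays, by 0.17 on array A and by 0.0024 on array B. Counts of chaperone genes called are therefore also given after each array was centred on its own median. The control probe sets of array A had a mean log2 ratio of 0.49 on O4+ replicate 2, against -0.08 to -0.01 on the other O4+ arrays and -0.56 to -0.17 on A2B5+ arrays. That O4+ array gave the highest of the 4 O4+ values in 29 of the 68 chaperone genes read from array A, and the lowest in 20.

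O4+ cells held more transcript of the J-domain genes Dnajb2 and Dnajb3, of Cryab and of the exchange factor Hspa4. By the ratios as deposited they also held more of most subunits of the CCT chaperonin. Genes called lower were Dnajc22, Hspb8, Hspa12b, Dnajc9, Hspa14 and Dnaja1. The calls of Hspa12b, Hspa14 and Dnaja1 were lost when some single replicates were left out, as given below. In bulk samples of sorted cells, fewer cells of a type and less RNA per cell cannot be told apart. Of the 82 chaperone genes tested, 24 were called higher in O4+ cells (29.3%), against 28.8% of all genes. Another 6 were called lower (7.32%), against 17.8% of all genes. After centring, 16 were called higher, all of them among the 24, where the share of all genes was 18.7%. Lower calls after centring numbered 7, the same 6 and Dnajc1, where the share of all genes was 20.4%. The values of the populations did not overlap for 25 chaperone genes higher in O4+ cells, where all genes gave 27.6%, and for 4 lower, where all genes gave 13.5%, or 29 in either direction, where all genes gave 41.1%. The median difference was 0.17 over the chaperone genes tested and 0.14 over all genes, and 0.06 and 0.03 after centring. Taken as single probe sets, 27 of 83 on array A were higher (32.5% of all its probe sets) and 4 lower (14.7%), and 3 of 25 on the other type were higher (9.93%) and 2 lower (13.8%). The share of higher calls lay near the background. Shares of all genes pool both array types, although probe sets of array A were called higher more often than those of array B. Of the chaperone genes tested, 68 were read from array A and 14 from array B.

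**Figure D1:**
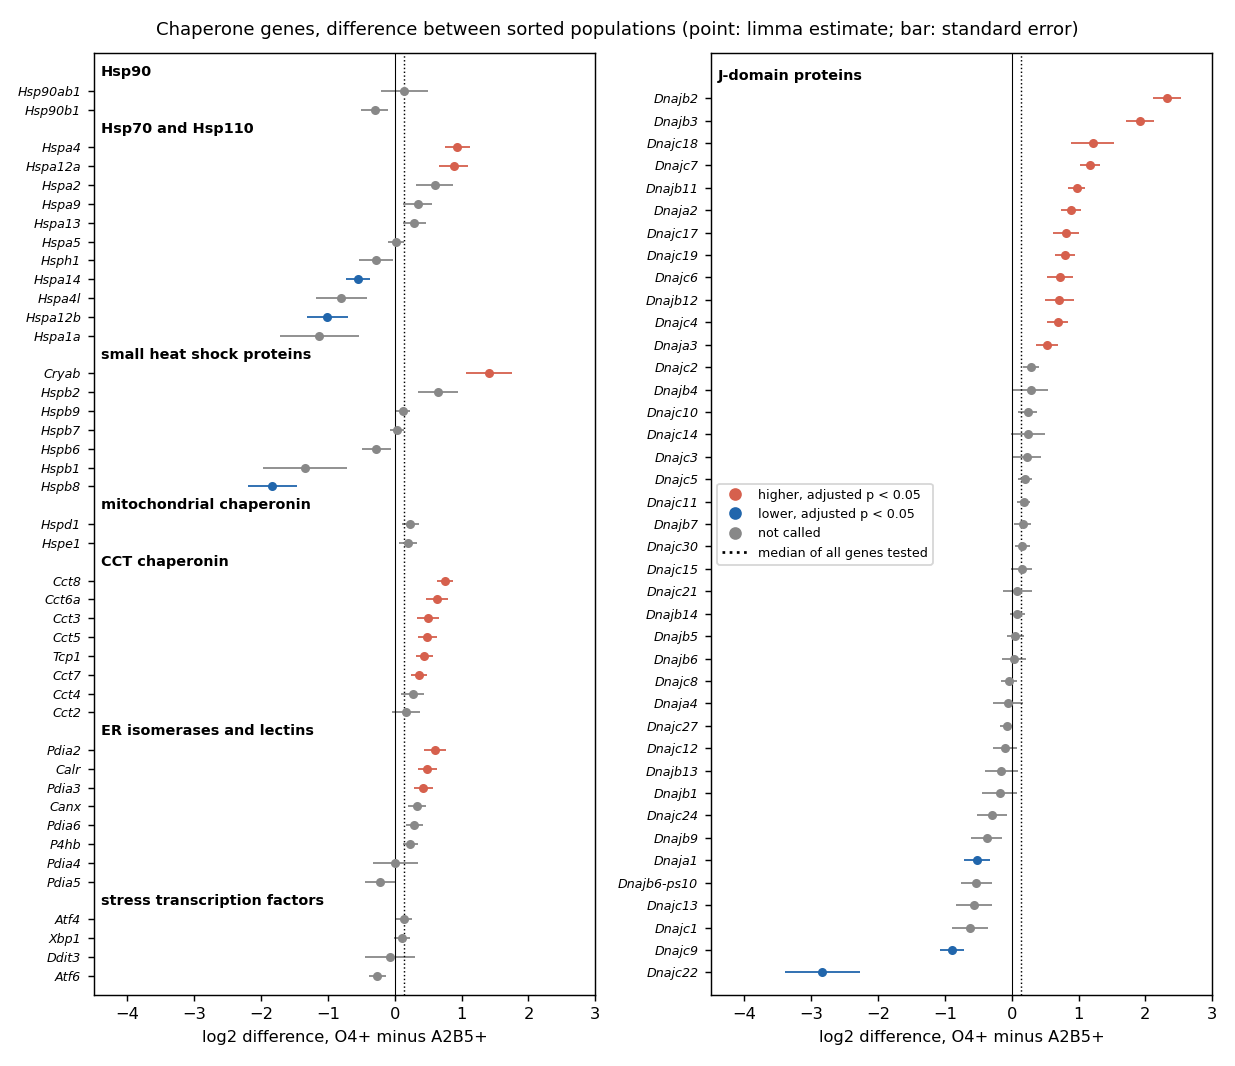
Difference between the sorted populations for each of the 82 chaperone genes tested, by role. The x axis is the log2 difference, O4+ minus A2B5+, points are limma estimates, bars are standard errors, and the dotted line is the median of all genes, 0.14. Red points (24 genes) are called higher and blue points (6 genes) lower at an adjusted p under 0.05, from 2.32 for Dnajb2 to -2.83 for Dnajc22.

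**Figure D2:**
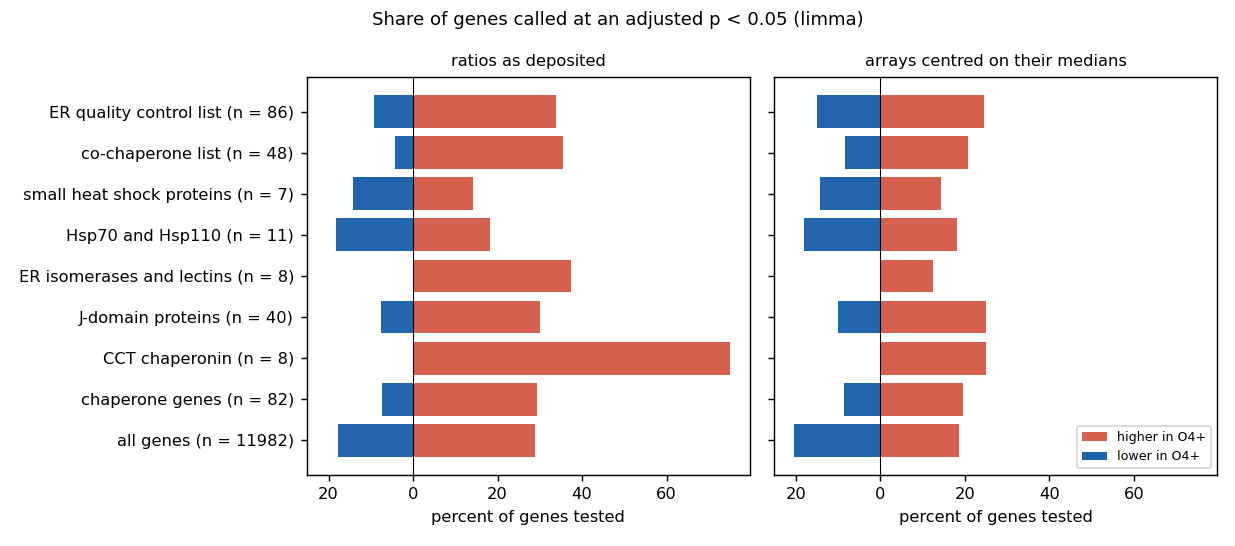
Percent of genes called higher (red, to the right) or lower (blue, to the left) in O4+ cells. Ratios are as deposited (left) or after each array was centred on its median (right). Bars are for all genes, all chaperone genes and the larger roles, and for the co-chaperone and ER quality control lists described below. The bar of all genes pools both array types. The roles of Hsp90, the mitochondrial chaperonin and the stress transcription factors, without a called gene, are not drawn. The bar of the CCT subunits reaches 75.0% higher on the left and 25.0% on the right, and those of all chaperone genes 29.3% and 19.5%, against 28.8% and 18.7% of all genes.

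The Hsp90 genes were not called. Hsp90ab1, the constitutive cytosolic Hsp90, had ratios of 1.19, 1.23, 0.790, 0.481 and 1.19 in the A2B5+ replicates and of 0.669, 1.83, 0.989 and 0.873 in the O4+ replicates, a difference of 0.14 ± 0.35 (adjusted p = 0.76). Its populations overlapped, with O4+ replicate 2 above every A2B5+ value, and its 2 probe sets had standard errors of 0.70 and 0.19. Hsp90b1, the Hsp90 of the ER, differed by -0.30 ± 0.21 (adjusted p = 0.25), with overlapping ratios of 0.873 to 1.33 and 0.584 to 1.16.

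Among 11 genes of the Hsp70 and Hsp110 families, 2 were higher and 2 lower (18.2% each, against 28.8% and 17.8% of all genes), as many as after centring. The median difference was 0.02, and -0.15 after centring. Hspa4, a protein of the Hsp110 type that exchanges the nucleotide on Hsp70, had ratios of 1.00, 0.712, 0.818, 0.948 and 0.814 in A2B5+ cells and of 1.57, 1.66, 1.19 and 2.26 in O4+ cells. All O4+ values lay above all A2B5+ values, replicate 4 being the highest, and the rise was 0.93 ± 0.19 (1.91-fold, adjusted p = 0.0030). Hspa12a, a distant relative of Hsp70 known from brain, read 0.873, 0.801, 0.801, 0.629 and 1.00 and 2.28, 1.37, 1.10 and 1.46. Its populations were also apart, with O4+ replicate 1 highest, and it rose by 0.88 ± 0.21 (adjusted p = 0.0085). Both calls held after centring.

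The 2 genes called lower had overlapping populations. Hspa12b, a relative of Hspa12a known from endothelial cells, read 1.01, 1.65, 1.05, 0.797 and 1.00 in A2B5+ cells and 0.419, 1.08, 0.421 and 0.421 in O4+ cells on array A. Of the O4+ arrays, 3 lay at nearly 1 value and replicate 2 lay among the A2B5+ values. It fell by 1.01 ± 0.31 (adjusted p = 0.025), and the call was lost without A2B5+ replicate 2 or O4+ replicate 1, 3 or 4 (adjusted p up to 0.069). Its probe set on array B, tested among the probe sets of that type, fell by 1.04 ± 0.21 (adjusted p = 0.0074), there with the populations apart. The endothelial markers were also lower, 5 of 5 on array A, with a mean centred log2 ratio of 0.23 to 0.77 on A2B5+ and of -2.26 to -1.24 on O4+ arrays. On O4+ replicate 2, where Hspa12b lay among the A2B5+ values, the endothelial list was low (-1.42). Markers of several other cell types were lower too, as given above, and the part of any of these markers in this result was not tested. Hspa14, part of a chaperone complex at the ribosome, fell by 0.55 ± 0.18 on array B (adjusted p = 0.031), with ratios of 0.957 to 1.70 and 0.737 to 1.00. The same probe set tested among the probe sets of array B alone was not called (adjusted p = 0.052). The call was also lost without A2B5+ replicate 1, 2 or 4 or O4+ replicate 2, 3 or 4 (adjusted p up to 0.074).

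Hspa5, which encodes BiP, the Hsp70 of the ER and the usual readout of ER stress, read 1.04, 1.00, 0.886, 0.867 and 1.04 in A2B5+ cells and 1.04, 1.10, 0.844 and 0.937 in O4+ cells. The populations overlapped fully, and the difference was 0.02 ± 0.12 (adjusted p = 0.92). Of the other Hsp70 and Hsp110 genes not called, Hspa2, a form known from testis, differed by 0.59 ± 0.28 on array A, where O4+ replicate 1 alone was high at 2.58, and by -0.04 ± 0.53 on array B. Hspa9, the mitochondrial Hsp70, differed by 0.34 ± 0.22, and Hspa13, a microsomal form, by 0.30 ± 0.17. Hspa13 was called without O4+ replicate 2 (0.45 ± 0.13, adjusted p = 0.021). Hspa4l, a relative of Hspa4, differed by -0.80 ± 0.38 (adjusted p = 0.11) on array B, where A2B5+ replicates 1 to 5 read 2.63, 1.66, 1.51, 1.00 and 0.716 and the O4+ replicates 0.873, 0.993, 1.00 and 0.438. It was called without A2B5+ replicate 5, the lowest of its group (-1.03 ± 0.35, adjusted p = 0.037).

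The J-domain proteins, which bring clients to Hsp70 and start its ATP hydrolysis, made up 40 of the genes tested. Of these 12 were called higher (30.0%, against 28.8% of all genes) and 3 lower (7.50%, against 17.8%). After centring 10 were higher (25.0%, against 18.7%) and 4 lower (10.0%, against 20.4%). The family median was 0.16, and 0.06 after centring, against 0.14 and 0.03 over all genes. The largest rise of any chaperone gene was that of Dnajb2, a J-domain protein that binds ubiquitin-tagged clients and is known from neurons. The ratios of Dnajb2 were 1.00, 0.560, 0.677, 0.633 and 0.912 in A2B5+ cells and 4.25, 2.81, 3.47 and 4.42 in O4+ cells. The lowest O4+ value was above the highest A2B5+ value by a wide margin, and the rise was 2.32 ± 0.21 (4.99-fold, adjusted p = 2.7e-05). Dnajb3, a short J-domain protein known from testis, read 0.942, 0.602, 1.00, 0.587 and 0.985 and 2.57, 3.11, 3.84 and 2.73, again with the populations apart, and rose by 1.92 ± 0.21 (3.78-fold, adjusted p = 9.3e-05). A second probe set of Dnajb2, on array B, stayed below the minimum for a test, with ratios of 0.804 to 1.40. Both genes rose beside the myelin markers, whose mean centred log2 ratio on array A was -0.91 to -0.35 on A2B5+ arrays and 3.81 to 4.33 on O4+ arrays; their part in the results was not tested.

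Dnajc7, whose tetratricopeptide repeats bind both Hsp70 and Hsp90, read 0.818, 0.646, 1.00, 0.679 and 0.793 in A2B5+ cells and 1.92, 1.62, 1.67 and 1.82 in O4+ cells, and rose by 1.17 ± 0.15 (adjusted p = 0.00020). Dnajb11, the soluble J-domain partner of BiP in the ER, read 0.796, 0.697, 0.885, 0.819 and 1.00 and 1.50, 1.65, 1.73 and 1.69, and rose by 0.97 ± 0.13 (adjusted p = 0.00026). In both genes the O4+ replicates lay close together and all above A2B5+. BiP itself, by contrast, differed by 0.02 ± 0.12 as given above; whether the pair differ in their change was not tested. Dnaja2, a general cytosolic partner of Hsp70, read 1.00, 0.825, 0.745, 0.938 and 0.639 and 1.47, 1.35, 1.53 and 1.74, and rose by 0.89 ± 0.15 (adjusted p = 0.0013). Dnajc18, a J-domain protein of the ER membrane, was read on array B with ratios of 0.650, 1.00, 0.556, 0.548 and 0.264 and 1.37, 1.18, 1.06 and 1.59, and rose by 1.21 ± 0.32 (adjusted p = 0.013). The A2B5+ values of Dnajc18 were spread widely, from replicate 5 to replicate 2, but all O4+ values lay above them.

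Another 6 J-domain genes were called higher, by 0.53 to 0.81. They were Dnajc17, Dnajc19 of the mitochondrial import motor, Dnajc6 (auxilin), which strips clathrin from vesicles, Dnajb12 of the ER membrane, Dnajc4 and Dnaja3 of mitochondria. Dnajb12 had overlapping populations, and the calls of Dnajb12 and Dnaja3 were lost after centring (adjusted p = 0.055 and 0.10). The 2 probe sets of Dnajc17 rose by 1.22 and 0.41, both called. The 25 J-domain genes not called ran from -0.63 to 0.29. Among them were Dnajc5, the cysteine string protein of synaptic vesicles (0.20 ± 0.11), Dnajb6 (0.04 ± 0.18), a suppressor of aggregation, and Dnajc3 (0.22 ± 0.21), an ER partner of BiP. Dnajc8, a splicing factor, is read by 1 probe set that is on both array types, and differed by -0.04 ± 0.13 on array A and by -0.30 ± 0.10 on array B, where the populations were apart (adjusted p = 0.053).

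The 3 J-domain genes called lower all had populations apart. Dnajc22 read 1.00, 2.47, 1.12, 1.35 and 3.67 in A2B5+ cells and 0.155, 0.789, 0.190 and 0.137 in O4+ cells, and fell by 2.83 ± 0.56 (adjusted p = 0.0028). This was the largest difference of any chaperone gene, with A2B5+ replicates 2 and 5 high and O4+ replicate 2 well above the other O4+ arrays. Dnajc9, a J-domain protein that also chaperones histones, read 1.00, 1.13, 1.22, 1.07 and 1.19 and 0.481, 0.791, 0.745 and 0.462 on array B and fell by 0.89 ± 0.18 (adjusted p = 0.0035). Markers of dividing cells moved the same way, 5 of 5 lower on array A with a mean centred log2 ratio of 0.29 to 0.80 on A2B5+ and of -2.20 to -1.50 on O4+ arrays, and their part in this fall was not tested. Dnaja1, the other main cytosolic partner of Hsp70 beside Dnaja2, fell by 0.52 ± 0.19 (adjusted p = 0.047), with ratios of 1.00 to 1.73 and 0.708 to 0.975. Its 2 probe sets fell by 0.83 (called) and 0.21 (not called), and the gene's call was lost without A2B5+ replicate 1, 2 or 5 or O4+ replicate 1, 2 or 3 (adjusted p up to 0.12). Dnaja1 and Dnaja2, close relatives with the same general role, had estimates of opposite sign, with the limits just given for Dnaja1. Their changes were not compared in a test.

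**Figure D3:**
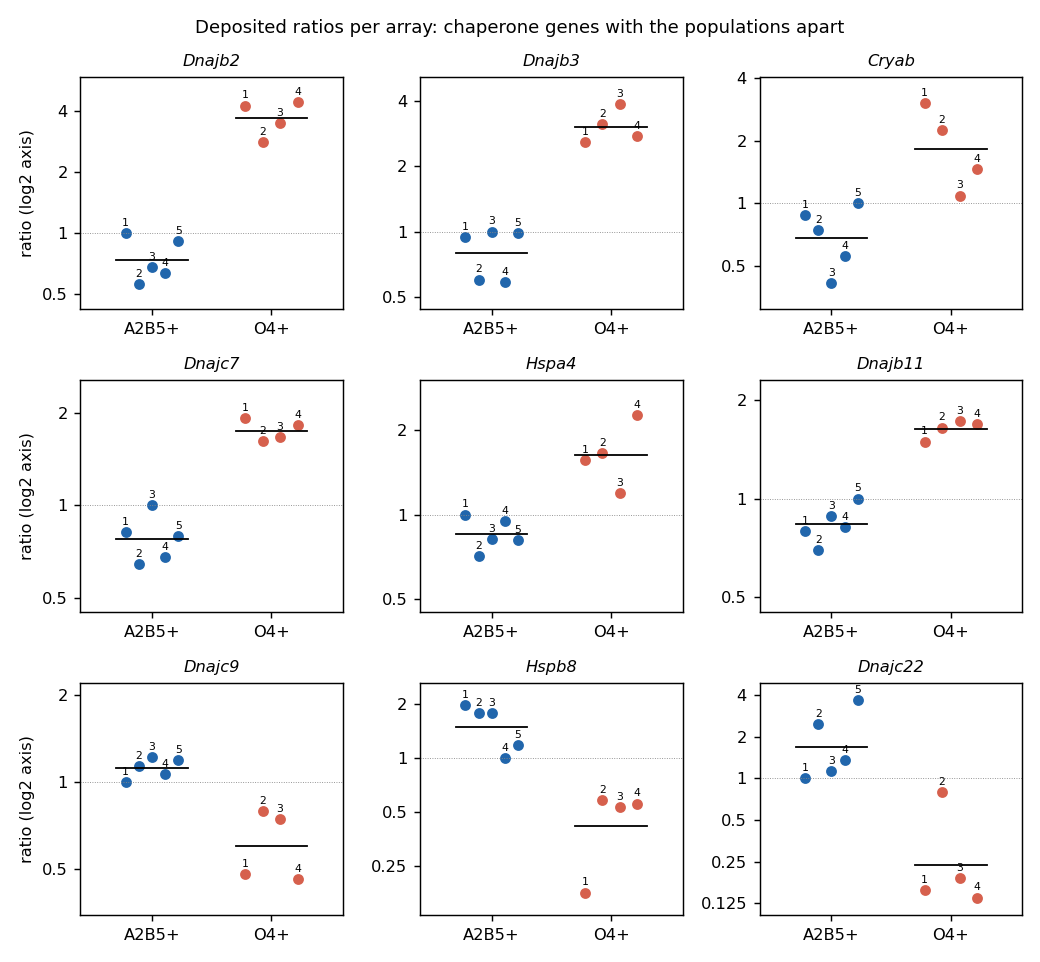
Deposited ratio per replicate (log2 axis) for 9 chaperone genes whose populations do not overlap, with A2B5+ replicates in blue, O4+ replicates in red, and bars at the mean of the log2 ratios. Dnajc9 is from array B and the other genes from array A. Dnajb2 lies at 0.560 to 1.00 in A2B5+ and 2.81 to 4.42 in O4+ cells, and Dnajc22 at 1.00 to 3.67 and 0.137 to 0.789.

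Of 7 small heat shock protein genes tested, 1 was called higher and 1 lower (14.3% each, against 28.8% and 17.8% of all genes). The counts were the same after centring, where all genes gave 18.7% and 20.4%. The median difference was 0.04 before and after centring. Cryab encodes alpha B-crystallin, a holdase known to be abundant in oligodendrocytes. Its ratios were 0.876, 0.744, 0.414, 0.556 and 1.00 in A2B5+ cells and 3.04, 2.26, 1.09 and 1.47 in O4+ cells. The populations were apart but O4+ replicate 3 lay close to the highest A2B5+ value, and the rise was 1.41 ± 0.34 (2.66-fold, adjusted p = 0.0078). Hspb8, which works with the co-chaperone Bag3 in the clearance of aggregates by autophagy, read 1.97, 1.79, 1.78, 1.00 and 1.19 and 0.178, 0.584, 0.532 and 0.558. Here every O4+ replicate lay below every A2B5+ replicate, O4+ replicate 1 lowest, and the fall was 1.83 ± 0.37 (adjusted p = 0.0030), or 3.57-fold. A second probe set of Hspb8 stayed below the minimum for a test, with ratios of 0.565 to 1.02 that were higher in every O4+ than in every A2B5+ replicate. Most chaperone probe sets of array A below that minimum showed this order, such as that of Hspb3 (0.401 to 0.495 and 0.529 to 0.589). It is thus not particular to Hspb8. With the second probe set averaged in, the fall of Hspb8 was 0.74 (limma, adjusted p = 0.022). Astrocyte markers also fell (5 of 6, with a mean centred log2 ratio of -0.06 to 1.21 on A2B5+ and of -1.002 to -0.35 on O4+ arrays), and their part in the fall of Hspb8 was not tested.

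Hspb2, the neighbour of Cryab in mammalian genomes, differed by 0.64 ± 0.30 (adjusted p = 0.10), with O4+ replicate 2 alone high at 2.42, and was called without A2B5+ replicate 5 (0.80 ± 0.29, adjusted p = 0.046). Hspb9, known from testis, differed by 0.12 ± 0.11, Hspb7, known from heart, by 0.04 ± 0.11, and Hspb6 (Hsp20), known from muscle, by -0.27 ± 0.22, none of them called.

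Several genes known to be induced by heat, grouped here after their values were seen, were spread widely among the A2B5+ replicates. Hspb1 (Hsp27) read 3.86, 3.35, 0.783, 0.613 and 3.86 in A2B5+ cells and 1.06, 1.00, 0.383 and 0.762 in O4+ cells. Hspa1a, the inducible Hsp70, read 2.36, 1.43, 0.798, 0.674 and 2.60 and 1.57, 0.357, 0.269 and 1.00. Hspa1a is nearly identical to Hspa1b, and its probe set may read both. Replicates 1, 2 and 5 of A2B5+ were high in both genes and replicates 3 and 4 were not, and the populations overlapped. The differences, -1.34 ± 0.62 for Hspb1 (adjusted p = 0.10) and -1.13 ± 0.59 for Hspa1a (adjusted p = 0.14), were not called, although Hspb1 was called without A2B5+ replicate 4 (-1.75 ± 0.54, adjusted p = 0.031). Hsph1, the inducible Hsp110, showed the same replicates high in A2B5+ (1.82, 1.25, 0.900, 0.756 and 1.68) beside even O4+ values (0.949, 1.11, 1.00 and 0.939), and was not called (-0.28 ± 0.25, and -0.91 ± 0.73 on array B). Dnajb1, the inducible partner of Hsp70, read 1.41, 1.20, 0.764, 0.764 and 1.85 and 1.01, 1.10, 0.987 and 0.895 (-0.18 ± 0.26, not called). Its relative Dnaja4, high in A2B5+ replicates 1 and 5 but not in replicate 2, differed by -0.05 ± 0.22 and was not called either. Hspb8, given above, was high in A2B5+ replicates 1, 2 and 3. Hspd1 and Hspe1, whose promoters matched the heat shock element searched below, are not in this group. Their A2B5+ values lay closer together (0.881 to 1.06 and 0.790 to 1.11). Nor does it hold Hspa4l, which was lowest in A2B5+ replicate 5, and Dnaja1, both given above.

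Bag3, the partner of Hspb8 and like these genes a target of heat shock factor, read 3.23, 2.08, 1.00, 1.13 and 3.25 in A2B5+ cells and 0.912, 0.934, 0.487 and 0.527 in O4+ cells. It was high in A2B5+ replicates 1, 2 and 5 as well, did not overlap between the populations, and fell by 1.47 ± 0.40 (adjusted p = 0.014). Immediate early genes, which respond within minutes to many stimuli, had a mean centred log2 ratio of 0.77, 0.41, -0.11, -0.04 and 0.80 in A2B5+ replicates 1 to 5 and of -0.21, -0.65, -0.81 and -0.47 in O4+ replicates 1 to 4. Of these, 6 of 10 were lower in O4+ cells (7 after centring). The motile cilia markers tested on array A (3 of 10 listed, 2 lower) read 2.12, 1.49, 0.04, -0.26 and 1.84 in A2B5+ cells and -0.70, -0.07, -0.82 and -0.28 in O4+ cells. Another 3 were tested on array B, where the list overlapped between the populations (-0.38 to 0.61 in A2B5+ and -0.27 to 0.03 in O4+ cells). Of these, Dnai1 was called lower (-1.79 ± 0.32), and Ccdc40 (0.76 ± 0.30) and Ccdc39 (0.10 ± 0.10) were not called. On array A both lists were thus highest in the same 3 A2B5+ replicates as Hspb1 and Hspa1a, and their part in these values was not tested. The endothelial list was also highest there (0.77, 0.60 and 0.28, against 0.24 and 0.23). Astrocyte, neuron and progenitor lists were instead highest in A2B5+ replicates 3 and 4 (0.96 to 1.49) and lowest in replicate 5 (-0.17 to -0.06). Myelin, microglia, mast cell and dividing cell lists showed neither order. Higher values in A2B5+ replicates 1, 2 and 5 than in 3 and 4 were not confined to the heat-inducible genes. In A2B5+ replicates 1 to 5, Ddit3 read 1.07, 1.12, 0.629, 0.709 and 1.94, and Pdia4 0.768, 1.26, 0.550, 0.620 and 1.42. Hyou1, of the ER quality control list below, read 1.03, 1.025, 0.180, 0.264 and 0.917. How many genes share this order was not counted.

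**Figure D4:**
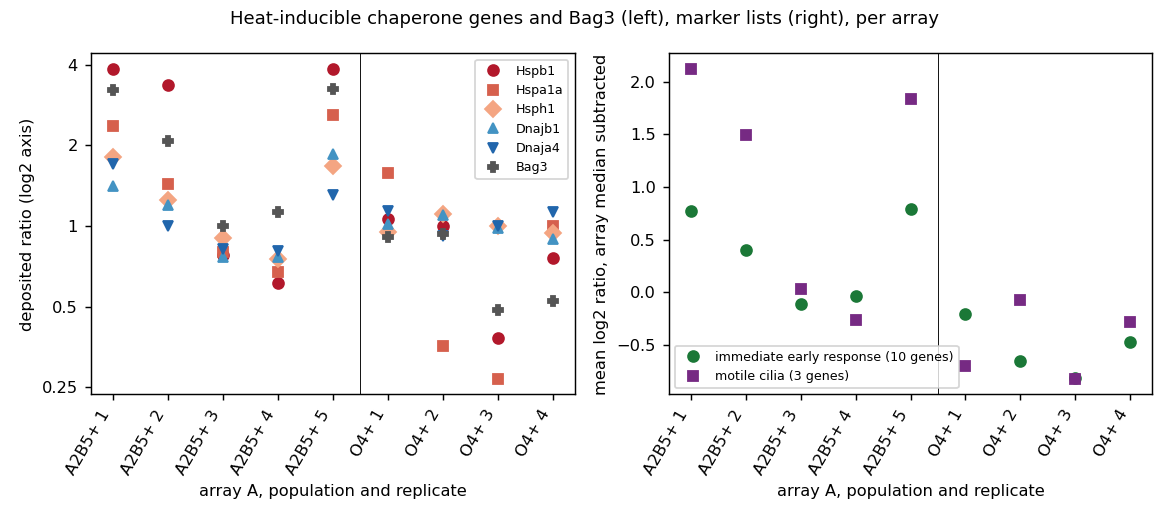
Left, deposited ratio (log2 axis) on each of the 9 arrays of type A for 5 heat-inducible chaperone genes (Hspb1, Hspa1a, Hsph1, Dnajb1, Dnaja4) and the co-chaperone Bag3. Right, mean log2 ratio of the immediate early response list (10 genes) and of the motile cilia list (3 genes) on the same arrays after the array median was subtracted. Hspb1 reaches 3.35 to 3.86 on A2B5+ replicates 1, 2 and 5 and at most 1.06 elsewhere, and both lists are highest on those 3 arrays.

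To see which promoters carry the letters that heat shock factor binds, the 250 bases before the RefSeq start (assembly GRCr8) of the 66 tested chaperone genes with an entry were searched on both strands for the heat shock element, GAANNTTCNNGAA or TTCNNGAANNTTC. Of all 33469 promoters 0.663% held it, and of the chaperone promoters 3 (4.55%), those of Hsph1, Hspd1 and Hspe1. None of these 3 genes was called. The stretches are shown because they place the element beside genes that were not called, with the matched letters in capitals. Hsph1 (chr12:10427312-10427364, plus strand) and the mitochondrial pair Hspd1 (chr9:64084242-64084287, minus strand) and Hspe1 (chr9:64084242-64084299, plus strand) read
Hsph1: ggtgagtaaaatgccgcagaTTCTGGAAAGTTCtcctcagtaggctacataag
Hspd1: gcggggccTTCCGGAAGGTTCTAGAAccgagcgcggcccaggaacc
Hspe1: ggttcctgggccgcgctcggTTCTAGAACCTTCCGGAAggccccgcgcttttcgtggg
The Hspd1 stretch lies within that of Hspe1, read on the opposite strand, in the shared start region of this gene pair. A match is only a match of letters, and the absence of one says nothing beyond this window.

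Hspd1 and Hspe1 encode the chaperonin and the lid that together fold proteins inside mitochondria. Hspd1 read 1.06, 0.905, 0.881, 0.954 and 1.00 in A2B5+ cells and 0.973, 1.29, 1.14 and 1.13 in O4+ cells, and Hspe1 read 1.00, 0.851, 0.790, 0.841 and 1.11 and 0.974, 1.15, 1.05 and 1.01. Both overlapped, with differences of 0.24 ± 0.12 (adjusted p = 0.13) and 0.20 ± 0.13 (adjusted p = 0.25), and neither was called.

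Most subunits of the CCT chaperonin were higher in O4+ cells by the ratios as deposited. Of its 8 subunits, which form a double ring that folds actin and tubulin, 6 were called higher in O4+ cells (75.0%, against 28.8% of all genes), and all 8 had estimates above 0, with a median difference of 0.46. All 8 were read from array A, where 32.5% of probe sets were called higher. After centring, 2 stayed called, Cct8 and Cct6a (25.0%, against 18.7% of all genes), the median was 0.29, and the estimate of Cct2 was no longer above 0. Cct8 read 0.902, 1.00, 0.860, 0.986 and 0.886 in A2B5+ cells and 1.54, 1.75, 1.62 and 1.33 in O4+ cells, with no overlap, and rose by 0.75 ± 0.12 (adjusted p = 0.00076). Cct6a, the mean of 2 probe sets that were both called, read 0.720, 0.970, 0.809, 0.926 and 1.01 and 1.59, 1.55, 1.03 and 1.36, and rose by 0.63 ± 0.16 (adjusted p = 0.012). O4+ replicate 3 of Cct6a lay just above the highest A2B5+ value.

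The other called subunits had populations apart by small margins. Cct3 rose by 0.50 ± 0.17 (adjusted p = 0.032), Cct5 by 0.48 ± 0.14 (adjusted p = 0.020), Tcp1 by 0.44 ± 0.13 (adjusted p = 0.020) and Cct7 by 0.37 ± 0.12 (adjusted p = 0.028). For these the centred differences of 0.33, 0.31, 0.27 and 0.20 were not called (adjusted p from 0.096 to 0.18). Cct4 (0.27 ± 0.17) and Cct2 (0.17 ± 0.20) were not called, and in both O4+ replicate 2 was the highest of all arrays, at 1.65 and 1.51. Leaving out single arrays ended the call of Cct3 (A2B5+ replicate 2, 3 or 4, or O4+ replicate 2 or 4), of Cct7 (A2B5+ replicate 2 or 3, or O4+ replicate 2, 3 or 4), of Cct5 (O4+ replicate 3) and of Tcp1 (O4+ replicate 4), with adjusted p between 0.05 and 0.069. Array B holds further probe sets for 3 subunits, none of them called, with 0.27 ± 0.22 for Cct5, 0.15 ± 0.15 for Cct8 and -0.09 ± 0.10 for Cct7. For Cct7 the estimate on that type had the opposite sign.

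**Figure D5:**
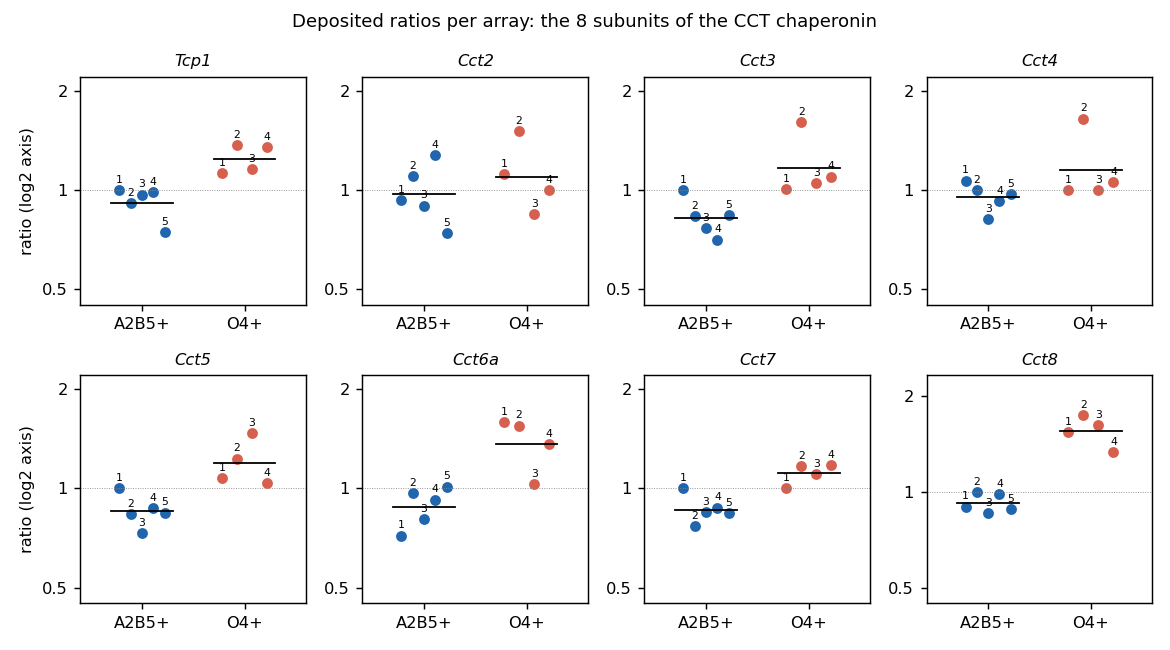
Deposited ratio per replicate on array A (log2 axis) for the 8 subunits of the CCT chaperonin, with A2B5+ replicates in blue, O4+ replicates in red, and bars at the mean of the log2 ratios. In Cct8 the O4+ replicates lie at 1.33 to 1.75 and the A2B5+ replicates at 0.860 to 1.00, while in Cct2 the populations overlap.

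In the ER, 3 of 8 isomerases and lectins were called higher (37.5%, against 28.8% of all genes) and 0 lower, with a median difference of 0.31. All 8 were read from array A, where 32.5% of probe sets were called higher. After centring 1 was higher (12.5%, against 18.7%) and 0 lower, with a median of 0.14. An unadjusted p under 0.05 was found for 5 of the 8, in either direction, where all genes gave 6526 of 11982. Pdia2, a disulfide isomerase known from pancreas, read 0.723, 0.723, 0.624, 0.957 and 1.00 in A2B5+ cells and 1.22, 1.20, 1.35 and 1.06 in O4+ cells and rose by 0.60 ± 0.16 (adjusted p = 0.014), a call that centring kept. Calr, the lectin calreticulin, read 0.882, 0.820, 0.693, 0.766 and 1.00 and 1.06, 1.16, 1.41 and 1.04 and rose by 0.49 ± 0.15 (adjusted p = 0.021). Pdia3, the isomerase that works with both lectins, rose by 0.43 ± 0.14 (adjusted p = 0.034). The populations of all 3 genes were apart, with the lowest O4+ ratios at 1.06, 1.04 and 1.02 against highest A2B5+ ratios of 1.00, 1.00 and 1.01. The calls of Calr and Pdia3 were lost after centring (adjusted p = 0.090 and 0.18), that of Calr also without O4+ replicate 3, and that of Pdia3 without A2B5+ replicate 1, 3 or 4 or O4+ replicate 1, 3 or 4.

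Canx, calnexin, the membrane-bound lectin, differed by 0.33 ± 0.13 (adjusted p = 0.057) as the mean of 3 probe sets of 0.63 (called), 0.33 and 0.05, and was called without O4+ replicate 2 (0.42 ± 0.12, adjusted p = 0.021). Pdia6 (0.29 ± 0.13, adjusted p = 0.084) had populations apart without being called. P4hb, the main disulfide isomerase, differed by 0.23 ± 0.11 (adjusted p = 0.11), with ratios of 0.812 to 1.01 and 1.00 to 1.11. Pdia4 (0.01 ± 0.34) and Pdia5 (-0.22 ± 0.22) overlapped between the populations, and Pdia4 had ratios of 0.550 to 1.42 in A2B5+ and of 0.503 to 1.09 in O4+ cells.

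The promoters of several of these genes carry the ER stress element, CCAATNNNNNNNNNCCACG, which the factors ATF6 and XBP1 act through. In the same 250-base windows, searched on both strands, 0.0657% of all promoters held it, and 6 of the 66 chaperone promoters (9.09%), those of Calr, Canx, Hspa5, Hsp90b1, Dnajc3 and Xbp1. The windows of 5 of these, with the element in capitals, are printed to set the shared letters beside the differences of these genes. Whether the genes differ from each other in their change was not tested. They are Calr (chr19:40213117-40213173, plus strand), Canx (chr10:35158049-35158107, minus strand), Hspa5 (chr3:38452953-38453011, plus strand), Hsp90b1 (chr7:23012327-23012489, minus strand) and Xbp1 (chr14:84604538-84604596, plus strand).
Calr: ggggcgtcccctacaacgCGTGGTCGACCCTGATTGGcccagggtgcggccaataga
Canx: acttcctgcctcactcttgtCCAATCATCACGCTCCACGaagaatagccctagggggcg
Hspa5: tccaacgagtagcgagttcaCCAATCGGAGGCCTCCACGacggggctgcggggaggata
Hsp90b1: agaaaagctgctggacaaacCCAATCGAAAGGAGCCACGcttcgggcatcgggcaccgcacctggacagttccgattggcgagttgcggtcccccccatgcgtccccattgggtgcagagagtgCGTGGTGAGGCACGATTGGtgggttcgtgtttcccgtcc
Xbp1: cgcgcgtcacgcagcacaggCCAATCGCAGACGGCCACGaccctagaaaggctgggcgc
In Calr the element is on the reverse strand, and Hsp90b1 holds 2, 1 on each strand. Of the 6 genes, Calr alone was called, and the differences ran from -0.30 for Hsp90b1 to 0.49 for Calr, with a median of 0.17, as among the promoters without the element.

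The transcription factors of the unfolded protein response, the program that ER stress sets off, were not called. Xbp1, the factor spliced by the sensor IRE1, read 0.995, 0.992, 0.978, 1.19 and 0.874 in A2B5+ cells and 1.00, 1.17, 1.15 and 1.01 in O4+ cells (0.11 ± 0.12, adjusted p = 0.49). Atf4, translated when PERK slows protein synthesis, read 0.961, 1.00, 0.996, 0.996 and 1.05 and 1.12, 1.30, 0.988 and 1.02 (0.14 ± 0.12, adjusted p = 0.34). Ddit3 (CHOP), which promotes death under lasting stress, was spread over 0.629 to 1.94 and 0.666 to 1.80 (-0.07 ± 0.38, adjusted p = 0.89). Atf6, the membrane-bound sensor, differed by -0.26 ± 0.12 on array B (adjusted p = 0.11). All 4 overlapped between the populations. These arrays do not read the splicing of Xbp1 or the cleavage of Atf6.

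Among 48 tested genes of a list of co-chaperones and folding cofactors, 17 were higher (35.4%, against 28.8% of all genes) and 2 lower (4.17%, against 17.8%), with a median difference of 0.29. Most of these genes were read from array A, where 32.5% of probe sets were called higher and 14.7% lower. After centring 10 were higher (20.8%, against 18.7%) and 4 lower (8.33%, against 20.4%), with a median of 0.12. The leading rises were Tbcb, which helps tubulin fold after CCT releases it (1.08 ± 0.16), Sgta, which hands membrane proteins on for insertion (1.07 ± 0.13), and Ttc1 (1.06 ± 0.11). Tbcb read 0.989, 0.805, 0.785, 0.889 and 1.00 in A2B5+ cells and 1.48, 2.49, 1.77 and 1.93 in O4+ cells (adjusted p = 0.00057). The lower genes were Bag3, given above, and Pdcl, a cofactor of CCT (-0.88 ± 0.29, adjusted p = 0.030). The call of Pdcl was lost without A2B5+ replicate 2, 3 or 4 or O4+ replicate 2 or 3. Hsf1, the master factor of the heat shock response, was not called (0.08 ± 0.19, adjusted p = 0.74).

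A list of 86 tested genes of ER entry, folding and quality control held 29 higher (33.7%, against 28.8% of all genes) and 8 lower (9.30%, against 17.8%), with a median difference of 0.31. Nearly all of these genes were read from array A, where 32.5% of probe sets were called higher and 14.7% lower, so the share of higher calls lay near that of array A. After centring 21 were higher (24.4%, against 18.7%) and 13 lower (15.1%, against 20.4%), with a median of 0.15. Asns, asparagine synthetase, a target of ATF4, read 1.00, 0.742, 0.648, 0.522 and 0.424 in A2B5+ cells and 3.87, 3.73, 6.01 and 3.59 in O4+ cells and rose by 2.72 ± 0.26 (adjusted p = 3.4e-05). Sec11c, a catalytic subunit of the signal peptidase, read 1.00, 0.992, 0.704, 0.987 and 0.866 and 4.11, 3.52, 3.68 and 3.91 and rose by 2.07 ± 0.14 (adjusted p = 3.7e-06). Both had O4+ ratios over 3 on every array, and their estimates were larger than that of any ER chaperone above. Fkbp14, a prolyl isomerase of the ER, rose by 1.26 ± 0.17 (adjusted p = 0.00034). The leading falls were Ppic, a cyclophilin of the secretory pathway (-1.92 ± 0.45), Rcn1, a calcium-binding protein of the ER lumen (-1.16 ± 0.21), and Fkbp10, a prolyl isomerase that serves collagen (-1.03 ± 0.17), with adjusted p of 0.0067, 0.0017 and 0.00096.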

How the data were processed

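Expression was measured in 5 A2B5+ and 4 O4+ replicates on 2 Affymetrix array types, 18 arrays in all. The authors deposited a linear ratio for each probe set and array. The submitters' processing notes list GCRMA, with no version; the step from its output to ratios was not given in the sources used here. Of 15923 probe sets on array A, 12995 had a median ratio of exactly 1, as had 11050 of 15333 on the other type, so no level of a gene can be read. The number of arrays limits the precision.

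Probe sets were named from the platform annotation (1 symbol for 12789 and 7570 probe sets, several for 312 and 100, none for 2822 and 7663). Symbols were checked by gene identifier against the reference gene table (12754 and 7530 matched, 0 changed). Probe sets with a ratio of at least 1 on 4 or more of 9 arrays were kept, without the 57 controls of each type. Just inside this minimum lay Dnajb7 (4 arrays, ratios 0.872 to 1.26), and just outside it 1 probe set of Dnajc11 (2 arrays, 0.863 to 1.06). Of 129 chaperone probe sets 108 were kept. The log2 ratios of a gene's kept probe sets with 1 symbol were averaged, array A before array B (68 and 14 chaperone genes; 15 had several probe sets). The populations were compared in R 4.3.3 by limma 3.58.1 (lmFit, eBayes, two-sided), with Benjamini-Hochberg adjustment over 11982 genes, and on each probe set within its array type. The fit was checked on simulated data.

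The members and gene lists were chosen with earlier results of these data known. Every tested member of a role with up to 12 was named. Of J-domain genes the 6 largest called rises and 6 largest called falls were named, and of both other lists the 3 largest of each; other J-domain genes were named after their values were seen. Deviations of same-numbered samples of both populations had r from 0.020 to 0.31 on array A and from -0.20 to 0.24 on array B, and numbers were not taken as pairs. On 100 probe sets shared by both types, O4+ replicates 1, 2, 3 and 4 of array A correlated best with replicates 3, 4, 1 and 2 of array B (r from 0.80 to 0.94), while A2B5+ numbers matched. Labels were used as given. O4+ numbers may thus be wrong on array A or array B, so the same-number correlations cannot decide whether samples pair. Alternatives were centring, other filters, probe set rules, array weights, a variance trend, a replicate block and leaving out each replicate. Promoters were from RefSeq (GRCr8). Features of the proteins were not analysed here.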

Additional observations from a re-analysis of the deposited data

Results flagged for a closer look

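Among 124 groups of values (62 named genes in each population), 11 held a replicate set apart from the others by Dixon's gap over range, where chance flags about 1 in 20. Of these, 5 were O4+ replicate 2. It was high in Cct4 (1.65 against 0.999 to 1.05, gap over range 0.891), Pdia6 (1.35 against 1.00 to 1.05, 0.854), Hspb2 (2.42 against 1.00 to 1.15, 0.842) and Hspa12b (1.08 against 0.419 to 0.421, 0.995), and low in Pdia4 (0.503 against 1.00 to 1.09, 0.893). This is the array A sample with the highest control probe sets, whose part in these values was not tested. O4+ replicate 1 was low in Hspb8 (0.178 against 0.532 to 0.584, 0.922), so the fall of Hspb8 is smaller in the other O4+ replicates. O4+ replicate 4 of array B, which correlates best with O4+ replicate 2 of array A on shared probe sets (r = 0.94), was low in Hspa4l (0.438 against 0.873 to 1.00, 0.835). O4+ replicate 3 was high in Asns (6.01 against 3.59 to 3.87, 0.855). Among A2B5+ cells, replicate 5 was high in Hspb7 (1.16 against 0.960 to 0.997, 0.803), replicate 3 was low in Hspb9 (0.812 against 0.979 to 1.03, 0.796) and replicate 1 was low in Fkbp10 (1.00 against 1.31 to 1.38, 0.835).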

How the results depend on the processing

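Of 35 named genes called, 24 kept their call under every alternative run, among them Dnajb2, Dnajb3, Dnajc22, Hspb8, Cryab, Hspa4 and Cct6a. The other 11 lost it under some: Cct3, Cct5, Cct7, Cct8, Tcp1, Calr, Pdia3, Hspa12b, Hspa14, Dnaja1 and Pdcl. Cct7 reversed, to -0.086, with array B before array A (adjusted p = 0.56), and Cct8 lost its call under that setting alone. Of the named genes not called, 8 were called under some alternative. With arrays centred, the median of the chaperone genes moved from 0.17 to 0.064, the co-chaperones called higher from 17 to 10 and lower from 2 to 4, and the ER quality control genes called lower from 8 to 13. Over all 11982 genes, higher calls then went from 3445 to 2241 and lower calls from 2127 to 2447. With array weights, 45 ER quality control genes were higher in place of 29 and 5 co-chaperones lower. Calls over all genes rose as well with array weights, to 4225 higher in place of 3445 and 2621 lower in place of 2127. The cause of these changes was not tested. The chaperone genes called higher numbered 16 to 32 and those called lower 3 to 7 over all settings. All genes gave 2241 (arrays centred) to 4914 (no filter) higher, and 1775 (without O4+ replicate 3) to 2621 (array weights) lower.

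Leaving out 1 replicate at a time gave 19 to 26 chaperone genes higher and 3 to 6 lower, with 3 without A2B5+ replicate 2 or O4+ replicate 3, and a median of 0.15 to 0.20. Arrays of the same number were left out on both array types, and for O4+ these may not be the same sample, as given above. Over all genes, 2714 to 3622 were higher and 1775 to 2091 lower in these fits. Leaving out 1 replicate also gave 14 to 17 co-chaperones higher and 1 to 2 lower, with 1 without A2B5+ replicate 2, 3 or 4 or O4+ replicate 3. The ER quality control genes numbered 25 to 33 higher and 7 to 10 lower. Leaving out the O4+ array with the highest controls of each type, an alternative chosen after seeing the data, gave 24 higher and 5 lower chaperone genes. All genes gave 3133 and 2110 there.

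With the replicate number as a block, 21 chaperone genes were higher and 7 lower with a median of 0.20, 18 co-chaperones were higher and 3 lower, and 32 ER quality control genes were higher and 8 lower. All genes gave 3218 higher and 2185 lower with the block. No O4+ replicate shares the number of A2B5+ replicate 5, so that replicate adds nothing to the differences in this fit. The medians equalled those without A2B5+ replicate 5, 0.20 for chaperone genes and 0.16 for all genes. The block ended the calls of Cct3, Cct5, Cct7, Tcp1 and Dnaja1, and Hspa4l and Hspb2 were then called. Leaving out A2B5+ replicate 5 also ended the call of Dnaja1 and also gave calls of Hspa4l and Hspb2. The numbers are not known to pair samples.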
